A study of Mus musculus with 12 samples.

Results

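The IFIT genes encode interferon-induced proteins with tetratricopeptide repeats. They were described here through 4 mouse genes, Ifit1, Ifit2, Ifit3 and Ifit3b, which were taken by symbol from the 53647 genes in the count files and matched to their Ensembl identifiers. IFIT proteins are made at low levels in resting cells and rise when type I interferon signals through its receptor to ISGF3, a transcription factor complex that includes STAT2 and IRF9 and binds the interferon-stimulated response element (ISRE) in their promoters. IRF3, the factor that the adaptor STING activates through the kinase TBK1, can also induce them directly. Ifit1 binds mRNA whose cap lacks methylation of the first nucleotides and blocks its translation, Ifit2 and Ifit3 form complexes with each other and with other IFIT proteins, and Ifit3b is a close copy of Ifit3 in the mouse.

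RNA was sequenced from 12 libraries of wild-type mouse cell lines in 6 groups of 2. The lines named are DC2.4, an immortalized dendritic line, and 4T1, a breast cancer line of epithelial origin. Each line received mRNA encoding EGFP (the Mock control) or mRNA encoding uniSTING, a STING mimic according to the series title, and DC2.4 cells were further incubated for 24 h with extracellular vesicles of 4T1 cells treated with Mock mRNA (EXOmock) or uniSTING mRNA (EXOuniSTING). Every control group thus received either EGFP mRNA or vesicles from cells that had. The labels name both a transfection reagent and lipid nanoparticles for delivery, but do not assign them to libraries, and state no treatment time for the mRNA groups. Each group held a preparation 1 and a preparation 2 library, and the labels do not tell whether these were separate cultures. In the headers of the counts, both libraries of a group carried the same code and differed in the suffix L1 or L2. The common coefficient of variation fitted between libraries of a group was 3.05%. The p-values below therefore reflect the spread between libraries, which may be technical.

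Library totals ran from 14.1 to 25.98 M counts, and 3 counts, taken as the floor per library, stood for 0.115 to 0.213 counts per M of the total (CPM). Marker genes went against the line named on the mRNA libraries. The 15 epithelial markers summed to 5497 to 5806 CPM in the 4 mRNA libraries with the DC2.4 label, against 0.238 to 6.16 CPM in the 4 labelled 4T1 and 0.267 to 6.57 CPM in the 4 vesicle libraries. The 17 leukocyte and myeloid markers summed to 36.9 to 58.0, 7642 to 7727 and 10496 to 13333 CPM in the same order, and the epithelial gene Epcam had at most 5 counts in any library labelled 4T1. The lines are therefore given below as labels only. Preparation 1 libraries also held 1216 to 3683 summed counts of genes of other tissues, such as the insulin gene Ins2, against 0 to 3 in preparation 2. The part of these differences in the results was not tested, and fold changes of the called members are also given within each preparation.

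All 4 members lie on the forward strand of chromosome 19 (GRCm39), and none overlaps another annotated gene. Ifit2 (ENSMUSG00000045932) spans 34528094 to 34553819, Ifit3 (ENSMUSG00000074896) 34560931 to 34566131, Ifit3b (ENSMUSG00000062488) 34585370 to 34590801 and Ifit1 (ENSMUSG00000034459) 34618271 to 34627409. Their exons cover 3927, 1745, 2000 and 2656 bases. The relatives Ifit1bl1 and Ifit1bl2 lie among them on the reverse strand and were too low to test.

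The bases just before the start of each gene are shown because interferon reaches these genes through an element in their promoters, which was searched for here. They are the 250 bases upstream of the RefSeq start (GRCm38.p6, forward strand, 5′ to 3′). Capitals mark matches to the ISRE core, which is GAAA, any 2 bases and GAAA, searched on both strands; all capitals below are matches on the opposite strand.
Ifit1, chr19:34640639-34640888: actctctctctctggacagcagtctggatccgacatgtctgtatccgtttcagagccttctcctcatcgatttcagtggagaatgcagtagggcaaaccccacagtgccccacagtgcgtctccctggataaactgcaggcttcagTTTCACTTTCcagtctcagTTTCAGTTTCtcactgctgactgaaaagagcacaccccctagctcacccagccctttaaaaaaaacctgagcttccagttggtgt
Ifit2, chr19:34550444-34550693: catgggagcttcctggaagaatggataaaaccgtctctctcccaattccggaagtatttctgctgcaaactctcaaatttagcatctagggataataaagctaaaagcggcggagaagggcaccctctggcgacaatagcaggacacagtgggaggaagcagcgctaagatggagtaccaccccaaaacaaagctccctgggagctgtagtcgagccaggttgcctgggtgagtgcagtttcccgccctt
Ifit3, chr19:34583279-34583528: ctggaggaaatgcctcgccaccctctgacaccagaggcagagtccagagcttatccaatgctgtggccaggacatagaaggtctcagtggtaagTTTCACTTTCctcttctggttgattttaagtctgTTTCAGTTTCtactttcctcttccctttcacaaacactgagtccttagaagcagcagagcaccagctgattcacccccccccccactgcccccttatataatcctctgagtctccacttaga
Ifit3b, chr19:34607707-34607956: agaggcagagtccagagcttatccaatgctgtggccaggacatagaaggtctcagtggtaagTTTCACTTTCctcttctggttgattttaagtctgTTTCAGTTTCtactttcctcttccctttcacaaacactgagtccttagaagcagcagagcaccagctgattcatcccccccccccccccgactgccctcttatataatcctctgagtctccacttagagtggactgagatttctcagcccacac

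Ifit1, Ifit3 and Ifit3b each held 2 matches, and the matching letters were TTTCACTTTC and then TTTCAGTTTC in all 3 windows. The first match began 104 bases before the start of Ifit1, 156 before that of Ifit3 and 188 before that of Ifit3b. Among the 32851 RefSeq windows of this length, 2.98% held the core and 0.180% held it at least 2 times. The Ifit2 window shown, and that of the other Ifit2 start in the table, held 0 matches, which says only that these letters are not in those windows. The letters TATAAA were in none of these windows and in 12.4% of all of them. The windows of Ifit3 and Ifit3b were identical at 216 bases, with 2 mismatches and 64 bases opposite gaps, and 99.1% of the aligned bases were the same.

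In the libraries labelled DC2.4, uniSTING mRNA came with higher Ifit1, Ifit3 and Ifit3b, while Ifit2, by far the highest of the 4 in the controls, differed little. In the libraries labelled 4T1, no member was called. In the vesicle libraries, Ifit1, Ifit2 and Ifit3 were higher with EXOuniSTING, and Ifit3b had 4 counts or fewer in every library. A gene is called here when its p-value from edgeR's quasi-likelihood test, adjusted by the Benjamini-Hochberg method over 14863 genes, is under 0.05.

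Of the 4 members, 3 were called higher under the DC2.4 label, where 41.7% of all genes tested were called and 20.8% were called higher. These 3 were also at least 2-fold higher, as were 2.19% of all genes tested. With the 4T1 label, 0 of 4 were called against 28.3% of all genes; the smallest unadjusted p was 0.237, so 0 members had an unadjusted p under 0.05, and DESeq2 (2 members with an adjusted p) and limma-voom likewise called 0. In the vesicle libraries 3 of 4 were called higher, against 7.96% of all genes called higher and 16.1% called either way. Ifit3b passed the filter on low counts through a single group, uniSTING mRNA under the DC2.4 label, so its call there is partly set by the filter, and these counts describe the members without supporting anything by themselves.

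**Figure D1:**
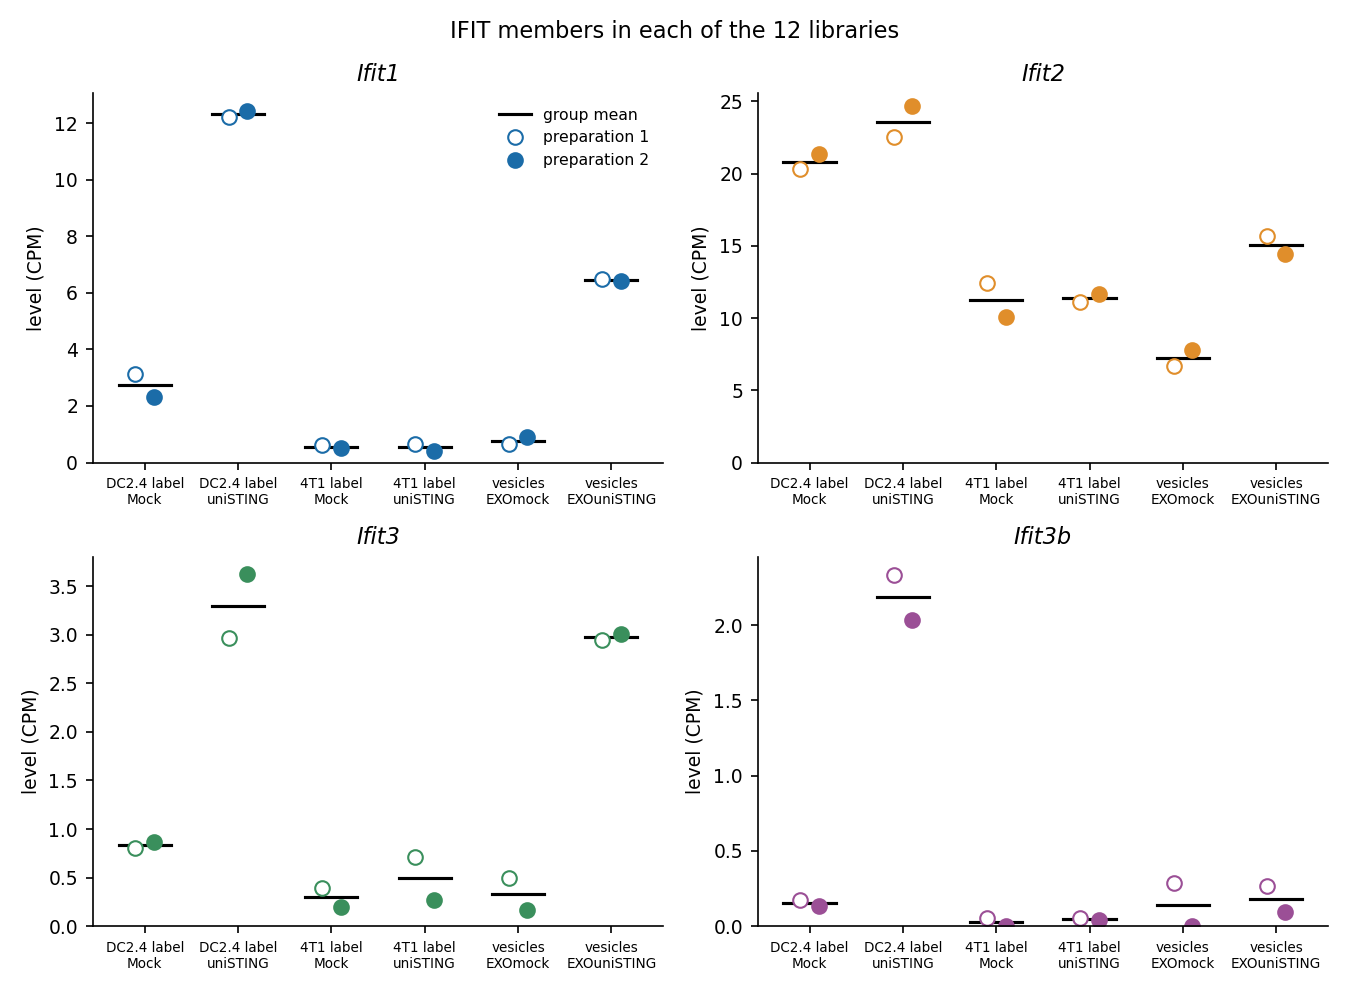
Level of each IFIT member in CPM (vertical axis, from 0) in each library, by group (horizontal axis). Open circles are preparation 1, filled circles preparation 2 and lines the mean of 2 libraries. Ifit1 stood at 12.2 and 12.4 CPM with uniSTING mRNA under the DC2.4 label and at no more than 0.662 CPM under the 4T1 label.

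Ifit1, the sensor of incompletely capped RNA, had 55 and 51 counts in preparations 1 and 2 of the Mock libraries labelled DC2.4 and 230 and 312 in the uniSTING libraries. The groups did not overlap, at 2.73 ± 0.586 and 12.3 ± 0.169 CPM (SD, n = 2), and the log2 fold change was 2.20 (SE 0.19, adjusted p = 5.12e-07). Within preparation 1 the fold was 3.88 and within preparation 2 it was 5.38. In the vesicle libraries, Ifit1 had 9 and 17 counts with EXOmock and 97 and 136 with EXOuniSTING. Every EXOuniSTING library was above every EXOmock library, with a log2 fold change of 3.02 (SE 0.25, adjusted p = 3.56e-06) and folds of 10.2 and 7.04 in the separate preparations. Libraries labelled 4T1 held counts of 11 and 13 with Mock and 13 and 11 with uniSTING mRNA. These groups overlapped, and the summed counts gave a fold of 0.945 with an exact 95% interval of 0.514 to 1.74 for counting error, so a change smaller than that was not detectable at this depth (log2 fold change -0.10, SE 0.34, adjusted p = 0.897).

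Ifit2, which binds other IFIT proteins and AU-rich RNA, had 356 and 470 counts with Mock and 425 and 618 with uniSTING mRNA under the DC2.4 label. The groups, at 20.8 ± 0.697 and 23.6 ± 1.48 CPM, did not overlap, and the folds were 1.11 and 1.16 in the separate preparations. Even so, the log2 fold change of 0.20 (SE 0.10) was not called (adjusted p = 0.12); it was called when only these 4 libraries were fitted (adjusted p = 0.0493) and with limma-voom (adjusted p = 0.05 when rounded, just under the threshold). With vesicles, Ifit2 rose from 94 and 146 counts with EXOmock to 234 and 306 with EXOuniSTING. That is 7.25 ± 0.794 against 15.04 ± 0.895 CPM, a log2 fold change of 1.04 (SE 0.12, adjusted p = 6.45e-05), with folds of 2.34 and 1.85 in the separate preparations. With the 4T1 label, 222 and 254 counts stood against 219 and 303. The groups overlapped, and with these higher counts the exact interval of the fold was narrow, from 0.913 to 1.18 around 1.04 (adjusted p = 0.997).

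Ifit3, which forms complexes with Ifit2, had 14 and 19 counts with Mock and 56 and 91 with uniSTING mRNA under the DC2.4 label. The log2 fold change was 2.00 (SE 0.40, adjusted p = 0.00106), with folds of 3.72 and 4.21 in the separate preparations, and the groups did not overlap. In the vesicle libraries, 7 and 3 counts with EXOmock stood against 44 and 64 with EXOuniSTING, and the log2 fold change was 3.24 (SE 0.49, adjusted p = 0.000572). The size of that fold rests on few control counts. Within preparation 1 it was 5.92 (exact 95% counting interval 2.65 to 15.6) and within preparation 2 it was 18.8 (6.15 to 93.5). The fitted change was 4.16 without the EXOmock library of preparation 1 and 2.57 without that of preparation 2, on the log2 scale, and was called in both cases. Ifit3 counts in the libraries labelled 4T1 were 7 and 5 against 14 and 7. The lowest uniSTING library lay below the highest Mock library, and the log2 fold change of 0.70 (SE 0.56) was not called (adjusted p = 0.40).

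Ifit3b, the copy of Ifit3, had 3 counts in each Mock library labelled DC2.4 and 44 and 51 in the uniSTING libraries. The controls were at the floor of 3 counts. The log2 fold change was 3.81 (SE 0.71, adjusted p = 0.000586), and the summed counts gave a fold of 14.3 with an exact 95% counting interval of 6.31 to 39.8. Within preparation 1 the fold was 13.6 (4.37 to 68.6) and within preparation 2 it was 14.9 (4.83 to 74.9). With vesicles, Ifit3b had 4 and 0 counts in the EXOmock libraries and 4 and 2 in the EXOuniSTING libraries. The interval of that ratio, 0.322 to 6.55 around 1.36, holds both a fall and a several-fold rise (adjusted p = 0.861). The libraries labelled 4T1 had at most 1 count per library, and no fold is given.

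**Figure D2:**
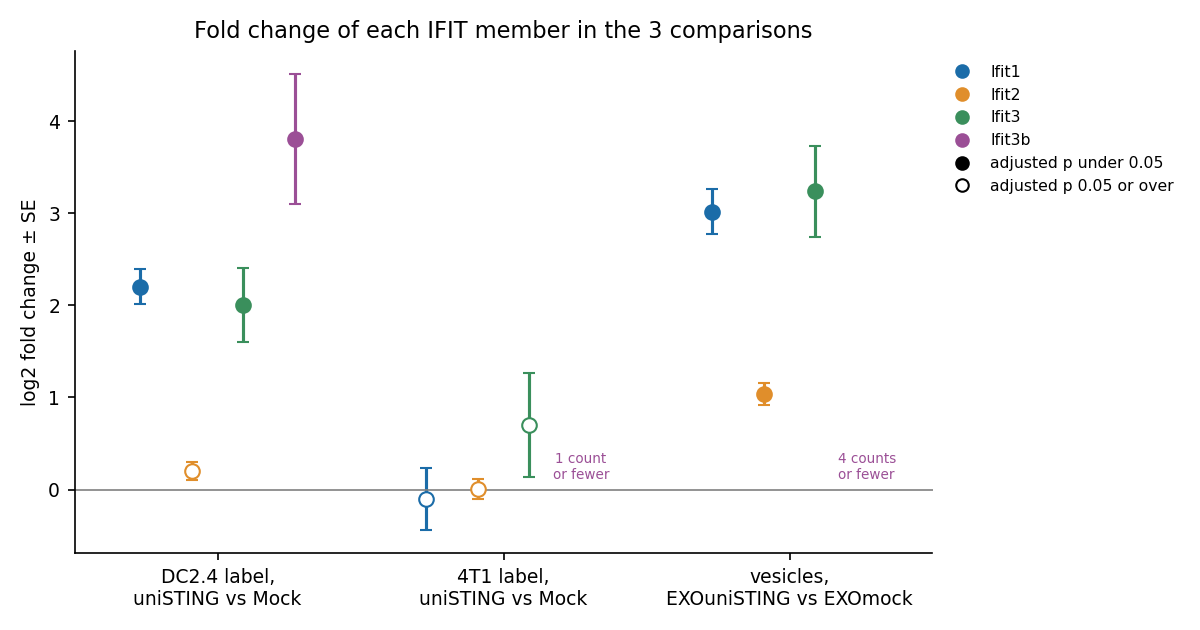
Log2 fold change of each member (vertical axis) in the 3 comparisons (horizontal axis), with standard errors from the edgeR quasi-likelihood fit. Filled points have an adjusted p under 0.05; Ifit3b has no point where no library had more than 4 counts. Ifit2 is the lowest of the 3 members plotted with vesicles, at 1.04, and is open under the DC2.4 label, at 0.20.

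The differences between these responses were then tested directly, with the same fit and adjustment. Between the DC2.4 and 4T1 labels, Ifit1 was the member called, with a response larger by 2.31 on the log2 scale under the DC2.4 label (SE 0.40, adjusted p = 0.000486); 31.1% of all genes were called in this contrast. The differences were not called for Ifit2 (adjusted p = 0.367), Ifit3 (adjusted p = 0.199) and Ifit3b (adjusted p = 0.384), so for Ifit3 and Ifit3b a response under the DC2.4 label alone is not shown. Between the DC2.4 label and vesicles, Ifit2 was the member called: its response was smaller under the DC2.4 label (log2 difference -0.84, SE 0.16, adjusted p = 0.000978, with 30.6% of all genes called). The corresponding difference was -0.82 for Ifit1 (adjusted p = 0.0739) and -1.24 for Ifit3 (adjusted p = 0.185). Ifit1 was called in that contrast without the Mock library of preparation 2 labelled DC2.4 (adjusted p = 0.0394).

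For Ifit3b, the adjusted p of the difference between the DC2.4 label and vesicles was 0.0835. It was 0.0274 with no filter on low counts and 0.0138 without the EXOmock library of preparation 2, which had 0 counts. Without the EXOmock library of preparation 1, which had 4, it was 0.712. The edgeR test thus gave no firm answer on whether Ifit3b responded differently in these libraries.

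Between the 4T1 label and vesicles, 3 members were called, against 28% of all genes. Responses were lower under the 4T1 label for Ifit1 (log2 difference -3.12, SE 0.43, adjusted p = 0.000115), Ifit2 (log2 difference -1.03, SE 0.16, adjusted p = 0.000349) and Ifit3 (log2 difference -2.54, SE 0.79, adjusted p = 0.0276). The Ifit3 call was lost without the preparation 1 Mock library (adjusted p = 0.153) or the preparation 2 uniSTING library (adjusted p = 0.0829) labelled 4T1. It was also lost without the preparation 2 library of EXOmock (adjusted p = 0.114) or of EXOuniSTING (adjusted p = 0.0564). Without the EXOmock library of preparation 1 the difference was -3.46, and without the uniSTING library of preparation 1 labelled 4T1 it was -3.33, both called. Leukocyte markers were high on both sides of this contrast. Its sides still differ in label, in delivery and in whether a treatment time was stated, which cannot be told apart. The contrasts with the DC2.4-labelled mRNA libraries also set epithelial against leukocyte expression. Marker genes cannot be told apart from the label in the contrast with the 4T1 label, or from delivery in the contrast with vesicles. In bulk RNA, fewer responding cells and less RNA per cell cannot be told apart either.

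Some members already differed between the control groups, but in neither contrast below was the members' share called above that of all genes. Ifit1 was higher in the Mock libraries labelled DC2.4 than in those labelled 4T1 by 2.34 (SE 0.27, adjusted p = 1.28e-06), Ifit2 by 0.98 (SE 0.11, adjusted p = 6.55e-07) and Ifit3 by 1.61 (SE 0.53, adjusted p = 0.0115) on the log2 scale. In this contrast 3 of 4 members were called, against 83% of all genes. The Ifit3 call was lost without the Mock library of preparation 2 labelled 4T1 (adjusted p = 0.119), and Ifit3b was not called (adjusted p = 0.0955). EXOmock libraries differed from the 4T1-labelled Mock libraries in Ifit2, which was lower (log2 difference -0.61, SE 0.12, adjusted p = 0.000704; 53.7% of all genes called), and not detectably in Ifit1 (adjusted p = 0.297), Ifit3 (adjusted p = 0.906) or Ifit3b (adjusted p = 0.228, but 0.0395 without the EXOmock library of preparation 2).

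Ordered by level, Ifit1 was highest with uniSTING mRNA under the DC2.4 label, followed by EXOuniSTING at 6.45 ± 0.0660 CPM and the DC2.4-labelled Mock group. The libraries of these 3 groups did not overlap. EXOmock followed at 0.775 ± 0.190 CPM, and then the Mock and uniSTING groups labelled 4T1 at 0.565 ± 0.0705 and 0.543 ± 0.169 CPM. The lower EXOmock library (0.640 CPM) lay above both 4T1-labelled Mock libraries but below the higher uniSTING library with that label (0.662 CPM), and the groups labelled 4T1 overlapped each other. For Ifit2 the order was uniSTING and Mock mRNA under the DC2.4 label, EXOuniSTING, both groups labelled 4T1 (11.4 ± 0.365 and 11.2 ± 1.66 CPM, overlapping) and EXOmock. EXOmock therefore had the lowest Ifit2 of the 6 groups and EXOuniSTING the third highest. For Ifit3, uniSTING mRNA under the DC2.4 label (3.30 ± 0.465 CPM) and EXOuniSTING (2.98 ± 0.0470 CPM) overlapped at the top, although their Ifit1 levels differed. The next group, Mock under the DC2.4 label, stood at 0.831 ± 0.0440 CPM, and the 3 lowest groups overlapped, from 0.295 to 0.491 CPM.

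The makeup of the family, compared per length of exon, changed with the response. In the Mock libraries labelled DC2.4 the 4 members summed to 6.89 ± 0.0303 CPM per kb, of which Ifit2 made up 77.0%, Ifit1 14.9%, Ifit3 6.92% and Ifit3b 1.12%. With uniSTING mRNA the sum was 13.6 ± 0.601 CPM per kb, with 44.1% Ifit2, 34.0% Ifit1, 13.9% Ifit3 and 8.01% Ifit3b. The ratio of Ifit2 to Ifit1 per kb thus stood at 5.16 in the controls and 1.295 in the treated libraries. A similar pair of values held for vesicles, where the sum was 2.397 ± 0.0364 CPM per kb with EXOmock and 8.06 ± 0.287 with EXOuniSTING and the ratio of Ifit2 to Ifit1 was 6.33 and 1.58. There Ifit3 made up 21.2% of the EXOuniSTING sum and Ifit3b 1.12%. Under the 4T1 label, Ifit2 was 87.9% of 3.26 ± 0.547 CPM per kb with Mock and 85.1% of 3.41 ± 0.155 with uniSTING mRNA. In these libraries the family consisted mostly of Ifit2 in either group.

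**Figure D3:**
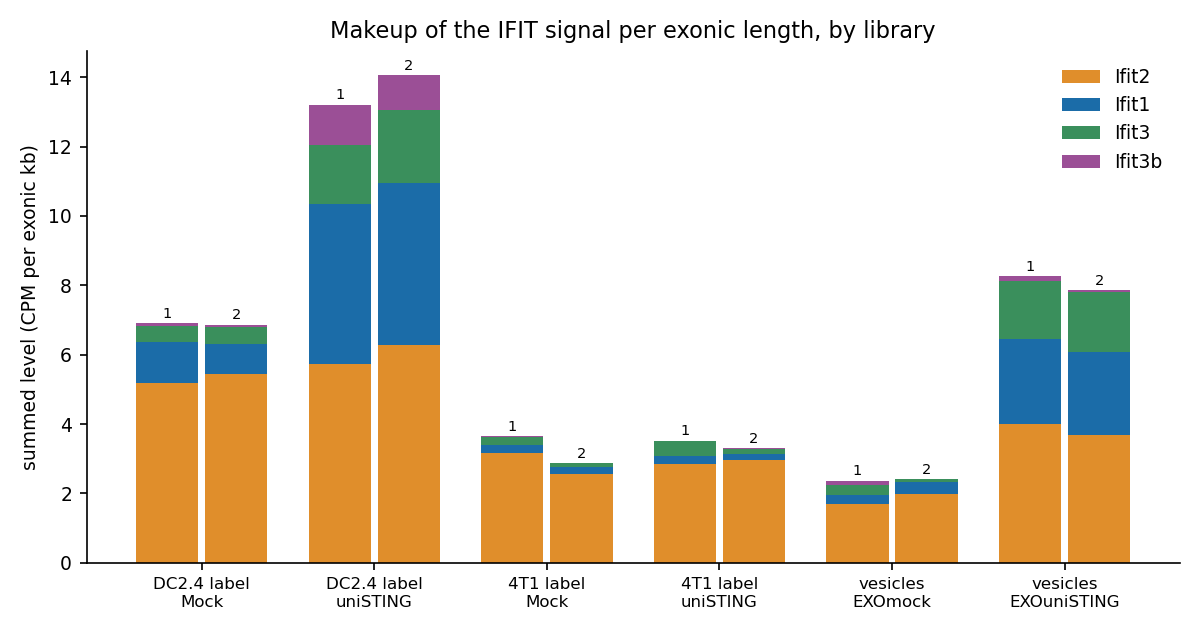
Summed level of the 4 members in CPM per kb of exon (vertical axis), stacked by member, for each library (bars; the number above is the preparation). The sums of the uniSTING libraries labelled DC2.4 reach 13.2 and 14.1, and Ifit2 makes up 80.6 to 89.9% of the bars labelled 4T1.

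Ifit3 and Ifit3b could be set against each other as a share of their joint counts. Of 242 such counts in the uniSTING libraries labelled DC2.4, Ifit3b had 39.3% (exact Clopper-Pearson 95% interval 33.1 to 45.7%), with 44% in preparation 1 and 35.9% in preparation 2. Of 114 counts in the EXOuniSTING libraries it had 5.26% (1.96 to 11.1%), with 8.33 and 3.03% in the separate preparations. These intervals, which cover counting error only, did not overlap, and both libraries of one group were above both of the other. The share was not tested, and Ifit3b had passed the filter only through the uniSTING group labelled DC2.4. Marker genes also differed between these groups, and the edgeR test of the Ifit3b responses above gave no firm answer. In the controls the shares were 15.4% of 39 counts under the DC2.4 label (5.86 to 30.5%) and 28.6% of 14 counts with EXOmock (8.39 to 58.1%), where all 4 Ifit3b counts came from preparation 1 (4 of 11 joint counts, against 0 of 3 in preparation 2). The libraries labelled 4T1 had 13 and 23 joint counts with Mock and uniSTING mRNA and shares of 7.69 and 8.70%. The intervals of the DC2.4-labelled Mock libraries and of the 4T1-labelled uniSTING libraries (1.07 to 28.04%) also lay below that of the DC2.4-labelled uniSTING libraries. Those of EXOmock and of the 4T1-labelled Mock libraries (0.195 to 36.03%) overlapped it, so at these depths their shares could not be told from it.

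**Figure D4:**
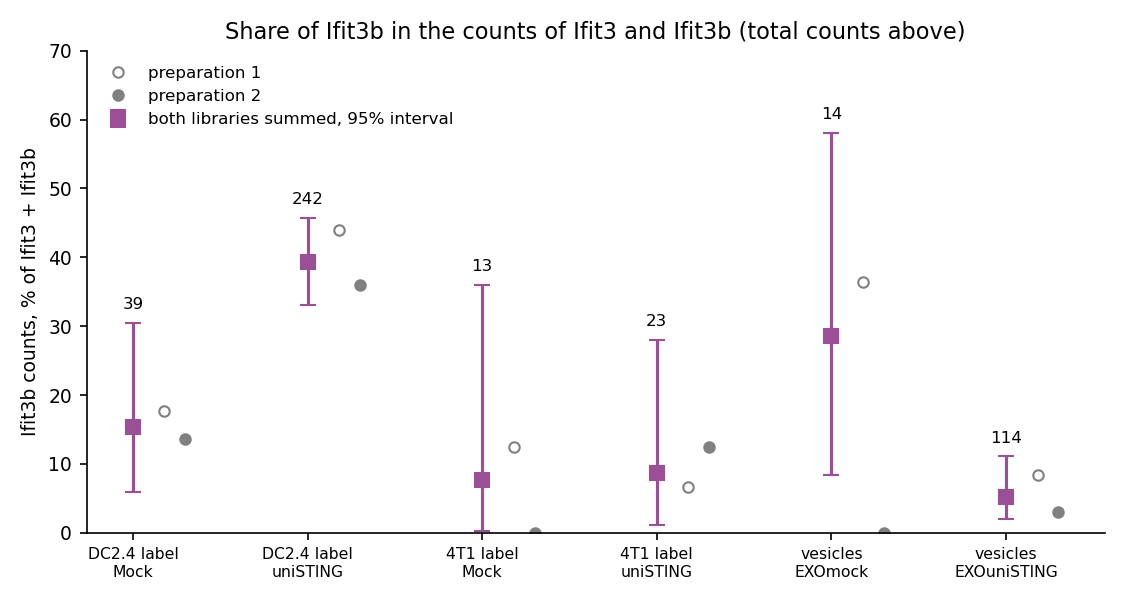
Share of Ifit3b in the counts of Ifit3 and Ifit3b together (vertical axis, percent) by group (horizontal axis). Squares are both libraries summed with exact 95% intervals for counting error, circles the separate preparations, and the numbers the joint counts. The intervals of the uniSTING libraries labelled DC2.4 (39.3%) and of the EXOuniSTING libraries (5.26%) do not overlap.

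The counts of these 2 genes carry a limit, since reads from stretches that both share are not uniquely mapped. Their transcripts were identical at 98.0% of aligned bases in GENCODE M21. Of all 50-base stretches, 51.2% of those of Ifit3 and 45.0% of those of Ifit3b also occurred in another gene; at 100 bases it was 31.7 and 27.4%, and at 150 bases 18.5 and 16.0%. Ifit1 shared 7.13% of its 50-base stretches with its relatives and Ifit2 none. The counts of Ifit3 and Ifit3b are thus uncertain, and how many of their reads were lost is not known from the files. Counted as 1 gene, the 2 had a log2 fold change of 2.49 under the DC2.4 label (adjusted p = 0.00022), 0.71 under the 4T1 label (adjusted p = 0.426) and 2.83 with vesicles (adjusted p = 0.00173). The difference between the 4T1 label and vesicles was then no longer called (log2 difference -2.12, adjusted p = 0.0717).

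Other genes of the pathway were read from lists, whose counts are descriptions. The ligands were low, and the listed interferon genes summed to at most 0.815 CPM in any library. That maximum was 16 counts of Ifng, the type II interferon gene, in the preparation 1 uniSTING library labelled 4T1, whereas preparation 2 had 0. Of 20 interferon genes, none passed the filter on low counts, so 0 were tested, and Ifnb1, the type I interferon that STING signalling is known to induce first, had 3 and 0 counts with Mock and 4 and 8 with uniSTING mRNA under the DC2.4 label. Ifnb1 had 0 counts in all 4 libraries labelled 4T1, and with vesicles it had 2 counts in a single library, EXOuniSTING preparation 2. The only Ifnb1 counts over the floor were the 4 and 8 of the uniSTING libraries labelled DC2.4.

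Between receptor and target, the 7 genes of the receptor and ISGF3 did not move as a block. Under the DC2.4 label 3 rose and 3 fell, under the 4T1 label 3 fell, and with vesicles 2 rose, against 41.7, 28.3 and 16.1% of all genes called in these comparisons. Irf9, the DNA-binding subunit of ISGF3, had 151 and 222 counts with Mock and 382 and 513 with uniSTING mRNA under the DC2.4 label, a log2 fold change of 1.14 (SE 0.11, adjusted p = 1.33e-06). With vesicles it had 185 and 243 against 308 and 513 counts, a change of 0.78 (SE 0.11, adjusted p = 0.000275). Stat2, which encodes another subunit, rose less under the DC2.4 label (log2 fold change 0.48, adjusted p = 0.000532). The kinase gene Jak1 fell there (log2 fold change -0.26, adjusted p = 3.55e-06). Under the 4T1 label the receptor chains Ifnar1 (log2 fold change -0.32, adjusted p = 1.82e-05) and Ifnar2 (log2 fold change -0.27, adjusted p = 0.000257) and the kinase gene Tyk2 (log2 fold change -0.27, adjusted p = 0.00151) fell. Tyk2 rose with vesicles (log2 fold change 0.21, adjusted p = 0.0326, but 0.0854 to 0.185 when any of the 4 vesicle libraries was left out), where Ifnar1 was not called (log2 fold change 0.12, adjusted p = 0.0555).

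Of the 9 genes of the sensor and IRF route, 3, 3 and 1 were called in the 3 comparisons, near the shares of all genes (41.7, 28.3 and 16.1%). Irf7, which amplifies interferon production and is itself induced by ISGF3, was called in all 3 comparisons. The counts of Irf7 were 28 and 53 against 182 and 199 under the DC2.4 label (log2 fold change 2.12, SE 0.17, adjusted p = 2.63e-07). With vesicles they were 72 and 88 against 306 and 426 (2.05, SE 0.15, adjusted p = 1.19e-06). In the libraries labelled 4T1 it stood at 5.76 and 6.31 CPM with Mock and 8.71 and 7.93 CPM with uniSTING mRNA (0.43, SE 0.15, adjusted p = 0.0434). That last call was lost when any of the 4 libraries labelled 4T1 was left out (adjusted p = 0.0777 to 0.186) and with DESeq2 (adjusted p = 0.109), whereas the other 2 held. The other calls of this list were small: Tbk1 (0.15, adjusted p = 0.0349) and the DNA sensor gene Cgas (log2 fold change -0.20, adjusted p = 0.0469) under the DC2.4 label, both lost when any of the 4 libraries was left out (adjusted p = 0.0727 to 0.18 for Tbk1 and 0.0758 to 0.21 for Cgas). With the 4T1 label they were the kinase gene Ikbke (log2 fold change -0.46, adjusted p = 2.46e-05) and Irf1 (log2 fold change -0.27, adjusted p = 0.00564; 0.0571 without the preparation 1 Mock library and 0.0659 without the preparation 2 uniSTING library). With vesicles neither Tmem173, which encodes STING (0.19, adjusted p = 0.0958), nor Ikbke (log2 fold change -0.15, adjusted p = 0.10) was called.

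Of 23 other interferon-stimulated effectors, 22 passed the filter. Under the DC2.4 label all 22 rose, against 20.8% of all genes called higher, with a median log2 fold change of 1.27 against 0.00 over all genes tested. With vesicles 19 rose, against 7.96% of all genes called higher, and the median was 1.78. Setting Rtp4, with 0 control counts, at its lower bound and leaving out Ifi44, at or under the floor in both groups, gave 1.60. Under the 4T1 label 7 rose and 2 fell, against 28.3% of all genes called either way, and the median was 0.24 against -0.01 over all genes. Ifit2 lay below the median of these effectors in all 3 comparisons, and Ifit1 above it under the DC2.4 label and with vesicles.

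Named by the smallest adjusted p, the effectors under the DC2.4 label were Ifitm3, which blocks viral entry (log2 fold change 0.64, SE 0.04, adjusted p = 9.60e-09), Bst2, which tethers budding virions (0.75, SE 0.06, adjusted p = 8.47e-08), and the ubiquitin-like modifier gene Isg15 (1.27, SE 0.12, adjusted p = 8.27e-07). With vesicles they were the oligoadenylate synthetase genes Oas3 (2.13, SE 0.10, adjusted p = 3.57e-08) and Oas2 (3.05, SE 0.20, adjusted p = 1.19e-06) and their relative Oasl2 (2.92, SE 0.17, adjusted p = 1.34e-07). Under the 4T1 label they were Ifitm3 (0.43, SE 0.03, adjusted p = 3.42e-07), Rsad2, which encodes viperin (1.72, SE 0.28, adjusted p = 0.000409), and Isg15 (1.07, SE 0.20, adjusted p = 0.00105). The last 2 were low: Rsad2 stood at 0.462 and 1.58 CPM and Isg15 at 1.23 and 2.63 CPM with Mock and uniSTING mRNA. Other effectors of low level were not called there, such as Usp18 at 0.744 and 1.08 CPM (adjusted p = 0.377) and Cxcl10 at 0.402 and 0.364 CPM (adjusted p = 0.889), both chosen after their values were seen.

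**Figure D5:**
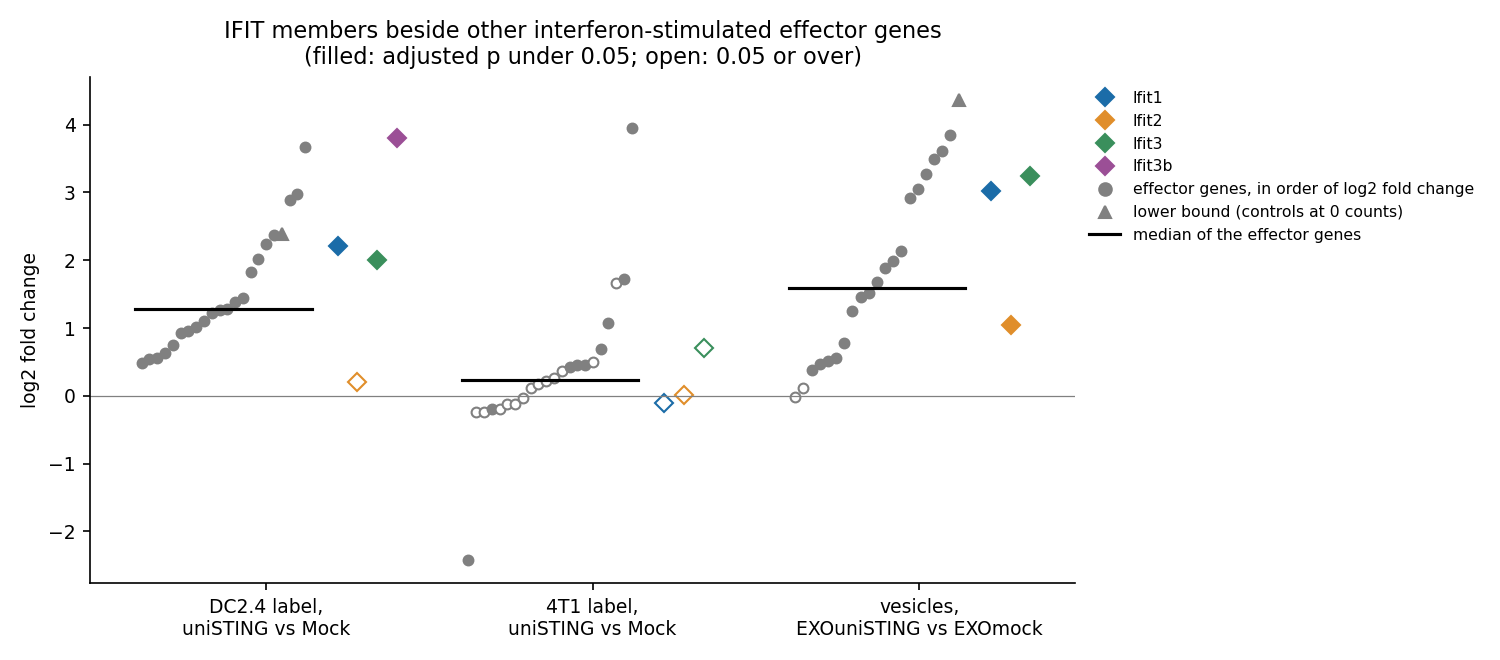
Log2 fold change (vertical axis) of the effector genes (grey, ordered by size, with the median as a line) and of the IFIT members (diamonds) in the 3 comparisons (horizontal axis). Filled symbols have an adjusted p under 0.05; triangles are lower bounds against the floor of 3 counts, and 1 effector at or under the floor with vesicles is left out. The effector medians drawn are 1.27, 0.24 and 1.60.

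IFIT proteins act on capped mRNA and on translation factors, and the genes of those partners changed little. Of 8 genes listed 7 were in the files and tested; 2 rose and 1 fell under each mRNA label, and 1 rose and 1 fell with vesicles. The shares of all genes called were 41.7, 28.3 and 16.1%, near that of the list under the DC2.4 label. The translation initiation gene Eif3c fell under the DC2.4 label (log2 fold change -0.30, adjusted p = 1.35e-08) and under the 4T1 label (log2 fold change -0.08, adjusted p = 0.00314). The cap-binding gene Eif4e rose by 0.23 under the DC2.4 label (adjusted p = 0.000284) and by 0.16 under the 4T1 label (adjusted p = 0.0096) and fell with vesicles (log2 fold change -0.17, adjusted p = 0.0135). The cap methyltransferase gene Rnmt rose by 0.15 under the 4T1 label (adjusted p = 0.0222) and was not called with vesicles (log2 fold change -0.13, adjusted p = 0.0816); its activator gene Ramac rose by 0.16 under the DC2.4 label (adjusted p = 0.0232). With vesicles Eif3e rose by 0.09 (adjusted p = 0.0244). Both calls of Eif3c and Eif4e under the DC2.4 label held when each library was left out. The calls of Eif3c, Eif4e and Rnmt under the 4T1 label were lost without its preparation 2 uniSTING library (adjusted p = 0.0509, 0.0828 and 0.30), and those of Eif4e and Rnmt also without its preparation 1 Mock library (adjusted p = 0.0752 and 0.117). Ramac was lost without the preparation 2 library of Mock (adjusted p = 0.216) or of uniSTING (adjusted p = 0.303). With vesicles, Eif4e was lost without preparation 2 of EXOmock (adjusted p = 0.135) or preparation 1 of EXOuniSTING (adjusted p = 0.111), and Eif3e without preparation 2 of either (adjusted p = 0.185 and 0.175).

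Among the 27 genes within 500 kb of the members, 7 passed the filter. Of these, 3 rose and 2 fell under the DC2.4 label, 2 fell under the 4T1 label, and 1 rose and 1 fell with vesicles, beside 41.7, 28.3 and 16.1% of all genes called, so that the share under the 4T1 label is that of all genes. Fas, the death receptor gene, rose by 0.71 under the DC2.4 label (SE 0.13, adjusted p = 0.000549) and fell under the 4T1 label (log2 fold change -0.42, SE 0.11, adjusted p = 0.00803); with vesicles it was not called (0.34, adjusted p = 0.0643). Lipa, the lysosomal acid lipase gene, fell under the 4T1 label (log2 fold change -0.14, adjusted p = 0.00338) and rose with vesicles (0.27, adjusted p = 0.000222). Under the DC2.4 label it was called lower as well (log2 fold change -0.22, adjusted p = 0.0464). That call was lost without the preparation 1 Mock library (log2 fold change -0.095, adjusted p = 0.52) or either uniSTING library (adjusted p = 0.12 and 0.136), and without the preparation 2 Mock library the change was -0.37, still called. Kif20b, a mitotic kinesin gene, fell under the DC2.4 label (log2 fold change -0.12, adjusted p = 0.00681) and with vesicles (log2 fold change -0.11, adjusted p = 0.0434), and Pank1 rose under the DC2.4 label (0.22, adjusted p = 0.0289) without a call under the 4T1 label (log2 fold change -0.18, adjusted p = 0.0732). The calls of Fas under the DC2.4 label and of Lipa under the 4T1 label and with vesicles held when each library was left out. Fas under the 4T1 label was lost without preparation 2 of Mock (adjusted p = 0.0895) or of uniSTING (adjusted p = 0.0589). Kif20b under the DC2.4 label was lost without preparation 1 of Mock (adjusted p = 0.061), and Pank1 without that library, preparation 2 of Mock or preparation 2 of uniSTING (adjusted p = 0.106, 0.0912 and 0.258). With vesicles, Kif20b was lost without preparation 2 of EXOmock (adjusted p = 0.407) or either EXOuniSTING library (adjusted p = 0.0513 and 0.30), and also with DESeq2 size factors (0.0549), upper-quartile factors (0.0612), no filter (0.0566) and DESeq2 (0.163). None of the 7 rose 2-fold or more.

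The relatives Ifit1bl1 and Ifit1bl2 showed few counts. Ifit1bl2 had 2 and 6 counts with Mock and 8 and 17 with uniSTING mRNA under the DC2.4 label, and at most 3 in any other library. Its annotated start on the reverse strand, at 34618143, lies just before the start of Ifit1 on the forward strand. The RefSeq window before its first start holds the same 2 ISRE core matches as Ifit1, read on its own strand. Ifit1bl1 had 3 counts in each uniSTING library labelled DC2.4, 1 in an EXOuniSTING library and 0 elsewhere.

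Across the 12 libraries, the members varied most alike for Ifit1 and Ifit3 (Pearson r = 0.931 of log2 CPM, a description over 12 libraries that share groups and preparations), and the other pairs of members lay between 0.662 and 0.797. The 6 genes whose level followed the mean of the members most closely were Cox5a (r = 0.987), Oasl1 (0.976), Xaf1 (0.972), Cklf (0.962), Bivm (0.955) and Cxcl10 (0.953). These correlations also take in the differences between the control groups and are not a measure of the response to uniSTING. By the distance of the 3 log2 fold changes from the members' means of 2.05, 0.33 and 1.93, the nearest genes were Irf7 (0.166), Xaf1 (0.401), Oas3 (0.527), Slamf7 (0.630), Rasgef1a (0.713) and Aloxe3 (0.753). The pro-apoptotic gene Xaf1 was named by both measures. The members' means hold the fitted values of Ifit3b from counts at or near the floor under the 4T1 label and with vesicles. Under the DC2.4 label the mean takes in values from 0.20 for Ifit2 to 3.81 for Ifit3b, whose controls were at the floor. A gene near these means is thus not shown to respond like each member.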

How the data were processed

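The deposited values are raw counts per gene, 1 file per library. Per the submitters' processing notes, the authors aligned reads with HISAT2 (version not given in the sources used here) to GRCm39; featureCounts (Subread 2.0.1) then counted uniquely mapped reads in paired mode over exons, per the file headers, against Ensembl release 103, with no strand option. Symbols were matched for 52093 of 53647 genes. Libraries were made from 1.0 µg of total RNA per the labels' protocols. Where only uniquely mapped reads count, genes with close copies are understated.

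Counts were tested with edgeR 4.0.16 (R 4.3.3): TMM factors, filterByExpr by group (10 counts at the median library, 0.520 CPM, in 2 libraries), quasi-likelihood F test on all 12 libraries with 1 mean per group, and Benjamini-Hochberg adjustment over 14863 genes at 0.05. The standard error is the fold change over the root of F. CPM used deposited totals. Python 3.11.15 and matplotlib 3.10.9 were used for tables and plots. The fit was tested on counts simulated from its own fitted means and spread, which cannot show whether the libraries were separate cultures. Intervals are exact at 95% and, like the floor of 3 counts, cover counting error only. Promoters came from RefSeq (GRCm38.p6; windows were found for all 4 members) and transcripts from GENCODE M21; proteins were not used here. The members, gene lists and tests were chosen with earlier results of these data known. Named were all members, of each list its counts and the 3 genes with the smallest adjusted p per comparison, Ifnb1, Stat2, Irf9 and Irf7 (another gene of this rule is not reported here), genes within 500 kb, and the 6 genes most like the members by each of 2 measures. Alternatives were other scaling factors, no filter or 1 CPM in 4 libraries, the preparation as a block, only the libraries compared, limma-voom (limma 3.58.1), DESeq2 1.42.0 and leaving out each library. Ifit3 and Ifit3b counted as 1 gene and folds within a preparation were added after seeing the data.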

Additional observations from a re-analysis of the deposited data

Results flagged for a closer look

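For some members the difference between responses was called by the test of the difference itself (edgeR's quasi-likelihood test, adjusted over all genes tested). For Ifit1 the log2 response under the DC2.4 label exceeded that under the 4T1 label by 2.31. For Ifit2 the response under the DC2.4 label minus that with vesicles was -0.84. Under the 4T1 label minus vesicles, the differences were -3.12 for Ifit1, -1.03 for Ifit2 and -2.54 for Ifit3. The last was called in 4 of the 8 fits that left out a library (adjusted p up to 0.153) and was not called with Ifit3 and Ifit3b counted as 1 gene (adjusted p = 0.0717). In these contrasts 1, 1 and 3 of 4 members were called, against 31.1, 30.6 and 28% of all genes, so in the first and second contrasts the members' share is not above that of all genes.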

How the results depend on the processing

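In the 3 comparisons, 3, 0 and 3 members were called (DC2.4 label, 4T1 label, vesicles), and leaving out any library kept these numbers. Other tools and scalings gave 2 to 4, 0 and 2 to 3, and DESeq2 gave no adjusted p for Ifit3b in any of the 3 comparisons, nor for Ifit3 under the 4T1 label or with vesicles. Ifit1, Ifit3 and, where tested, Ifit3b stayed called under the DC2.4 label, as did Ifit1, Ifit2 and, where tested, Ifit3 with vesicles. In the contrast of the DC2.4 label with vesicles the call of 1 member became 2 with no filter on low counts, where Ifit3b was added. Ifit1 was added without the preparation 2 Mock library labelled DC2.4, and Ifit3b without the preparation 2 EXOmock library. When each library was left out, the log2 difference of Ifit3b ranged from -1.02 to 4.53. The cause was not tested. For EXOmock against the Mock libraries labelled 4T1, 1 to 2 members were called when each library was left out, and the log2 difference of Ifit3 ranged from -0.796 to 0.786. Uncalled changes under the 4T1 label crossed 0 when each library was left out: -0.412 to 0.212 for Ifit1, -0.136 to 0.149 for Ifit2 and -0.0836 to 1.29 for Ifit3. That of Ifit2 was also -0.000277 with DESeq2's size factors in edgeR and -0.00305 with DESeq2. Over all genes, the vesicle comparison called 2393 genes and 1294 to 1532 when each library was left out, with 1 library then standing alone and its spread taken from the other groups; the other counts stayed within 1.5 times of 6196 and 4209. With the preparation as a replicate block, 3, 0 and 3 members were called, and 6414, 4432 and 2490 genes; the block changed no call of a member and added calls for Ifnar1 (adjusted p = 0.0249) and Rnmt (adjusted p = 0.049) with vesicles. Of 39 called changes of list genes and neighbours named by the rule, 15 were lost when some library was left out, 6 of them also with DESeq2, and 0 changed sign. The labels do not say that a preparation number marks a shared batch, and deviations of same-numbered libraries correlated at -0.033 to 0.595 between groups (median 0.012, 7431 genes), the highest being Mock with uniSTING under the DC2.4 label. Preparation 1 libraries also share counts of genes of other tissues. CPM over TMM-scaled totals kept 20 of 24 levels within 1 SD. Low counts of Ifit3 and Ifit3b limit what could be detected.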
